A study of Mus musculus with 16 samples.

Results

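The 46 genes described here drive the cell cycle and copy DNA. They are the rows of a read count table from mouse liver whose symbols are on a fixed list of cell cycle and DNA replication genes, 46 of the 48051 rows that carry a symbol. The rule uses symbols alone, but the list was chosen with earlier results of these data known. For description they were put into 10 sets by role. The 22 members of the sets for cell cycle entry and replication comprise 3 G1 cyclins, 4 transcription factors, 11 replication licensing and fork proteins and 4 enzymes of deoxynucleotide supply. The 24 members of the mitotic sets comprise 4 genes for mitotic cyclins and their kinase Cdk1, 2 partners of the anaphase-promoting complex, 6 mitotic kinases and checkpoint proteins, 3 centromere proteins, 7 spindle and cytokinesis proteins and 2 proteins of the chromosome surface and DNA topology.

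The study measured poly(A) RNA from whole livers of C57BL/6J mice in 16 libraries, 4 for each of 4 groups. WT-ctr is wild type on control diet, and WT-EtOH is wild type given Gao-binge alcohol feeding, which joins a period of ethanol diet with a final ethanol gavage. KO-ctr and KO-EtOH are mice with a hepatic knockout of Tsc1 on the same 2 regimens. All 16 are labelled 10 days. The protein made from Tsc1 is part of a complex that restrains the growth kinase mTORC1. The labels do not state the promoter that drove the deletion, the deleted exons, or the age and sex of the mice. Nor do they say that each library is a separate animal, so the p-values measure the spread between libraries. Library totals ran from 14.75 to 21.757 M counts. Tsc1 itself was at 24.3, 27.6, 24.9 and 29.7 CPM (counts per 1000000) in WT-ctr, 23.4, 16.8, 16.2 and 17.7 in KO-ctr, 15.8 to 19.8 in WT-EtOH and 11.8 to 16.4 in KO-EtOH. The knockout differed from wild type by a log2 fold change of -0.52 ± 0.13 (SE, adjusted p = 0.0147) on control diet and -0.36 ± 0.13 (SE, adjusted p = 0.0386) after ethanol, where the libraries overlapped. The first call was lost without WT-ctr library 4 or KO-ctr library 3, and the second on leaving out any 1 of 9 libraries, with no filter on low counts, with only the 2 groups compared, with the replicate number as a block and with limma voom. Mean Tsc1 was 18.4 CPM in WT-EtOH and 18.5 in KO-ctr, so its level does not separate the genotypes across regimens. The part of undeleted cells and of exons outside the deleted part in the Tsc1 counts was not tested. The hepatocyte markers Alb and Hnf4a were abundant in all 16 libraries.

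In the cell cycle, cyclin D and its kinases release E2F transcription factors from the retinoblastoma proteins, and E2F turns on genes for DNA replication. MCM helicases are loaded at origins, and PCNA and its partners copy the DNA. Later, FOXM1 and the MuvB complex turn on mitotic genes, Cdk1 with cyclins A and B drives entry into mitosis, and the anaphase-promoting complex ends it. Adult hepatocytes are mostly quiescent and re-enter the cycle after injury or partial hepatectomy. Fewer cycling cells and less RNA in each cannot be told apart in whole tissue.

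Promoter sequence is shown for 6 members, because these transcription factors act through short motifs close to the start site. RefSeq windows on GRCm38.p6, from 250 bases before to 50 bases after the gene start, were found for 38 of the 46 members, all but Tpx2, Aurkb, Foxm1, Mcm4, Ccnd1, Ccna2, Kif20a and Ccne2. The motifs, searched on both strands, were an E2F site (TTTCCCGC, TTTGGCGC, TTTGCCGC or TTTCGCGC), the cell cycle genes homology region (TTTGAA) bound by MuvB complexes, and the CCAAT box (CCAAT) bound by NF-Y. The E2F site was in 8 of 38 member windows (21.1%) and in 704 of all 27025 genes with a window (2.6%). TTTGAA was in 19 of 38 (50%) against 20.2% of all genes, and CCAAT in 30 of 38 (78.9%) against 41.1%. All 19 members with TTTGAA also had CCAAT, a pair that 8.97% of all genes held. In 1 member window an E2F site overlapped a TTTGAA or CCAAT motif. A match describes letters in a window and is no evidence of binding.

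The stretches run 5′ to 3′ on the gene's strand, which is the minus strand for all 6, and end before the start site; capitals mark the motifs, and motifs on the opposite strand appear as their reverse complement. Cdk1, Mki67, Top2a, Cdc20 and Mcm10 are among the members whose values are given by library, and Mcm6 was added after its window was seen, to show E2F sites. Cdk1 lies at chr10:69352913-69353145, Mki67 at chr7:135716447-135716592, Top2a at chr11:99024190-99024439, Cdc20 at chr4:118437344-118437421, Mcm10 at chr2:5012792-5012914 and Mcm6 at chr1:128359706-128359840.
Cdk1: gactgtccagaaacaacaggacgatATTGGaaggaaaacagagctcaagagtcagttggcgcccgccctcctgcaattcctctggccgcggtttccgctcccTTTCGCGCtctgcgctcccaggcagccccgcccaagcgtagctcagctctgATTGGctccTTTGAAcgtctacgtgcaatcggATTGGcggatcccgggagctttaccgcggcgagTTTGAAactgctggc
Mki67: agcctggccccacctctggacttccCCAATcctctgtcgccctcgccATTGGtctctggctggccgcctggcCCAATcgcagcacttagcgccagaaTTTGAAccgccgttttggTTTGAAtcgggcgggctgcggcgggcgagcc
Top2a: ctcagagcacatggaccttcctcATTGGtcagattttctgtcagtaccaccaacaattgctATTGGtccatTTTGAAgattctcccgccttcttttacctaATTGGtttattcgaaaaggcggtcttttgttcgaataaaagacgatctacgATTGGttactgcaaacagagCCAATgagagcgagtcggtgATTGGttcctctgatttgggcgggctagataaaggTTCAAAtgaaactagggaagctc
Cdc20: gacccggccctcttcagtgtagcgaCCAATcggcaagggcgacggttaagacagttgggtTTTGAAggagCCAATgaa
Mcm10: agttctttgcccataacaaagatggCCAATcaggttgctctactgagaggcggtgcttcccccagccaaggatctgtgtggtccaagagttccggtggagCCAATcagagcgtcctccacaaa
Mcm6: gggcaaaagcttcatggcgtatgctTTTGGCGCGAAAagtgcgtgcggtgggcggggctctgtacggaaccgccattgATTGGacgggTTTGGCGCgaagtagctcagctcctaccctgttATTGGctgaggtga
Cdk1, whose kinase starts mitosis, carried all 3 kinds of motif, with its E2F site beginning 131 bases and its TTTGAA motifs 71 and 15 bases before the start. The mitotic genes Mki67, Top2a and Cdc20 carried TTTGAA and CCAAT, in Mki67 with TTTGAA 116 and 98 bases before the start. The helicase subunit gene Mcm6 carried 3 E2F matches, of which 2 overlap each other, and no TTTGAA; in Mcm5 as well 2 E2F matches overlap each other. Mcm10 carried CCAAT alone, 98 and 23 bases before the start. By set, the E2F site was in 6 of the 10 licensing and fork members with a window, and TTTGAA in 4 of 5 spindle and cytokinesis members.

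Of the 46 members, 43 passed the filter on low counts and were tested, among 14346 genes in all. The DNA licensing factor Cdc6, cyclin Ccnb1 and the checkpoint kinase Bub1 did not, with 61, 114 and 71 counts over all 16 libraries. A gene passed by reaching a minimum count in enough libraries, so some low members, such as Hmmr and Cenpf, passed through KO-EtOH libraries. Counts of members higher in KO-EtOH thus include members that were tested because they were high there. In the GENCODE annotation of GRCm38, exons of Foxm1, Mcm7 and Top2a overlap another gene on the same strand, and those of 13 members, Ccna2, Ccnd1, Ccne2, Cdc20, Cdc45, E2f8, Kif20a, Mcm7, Nusap1, Plk1, Prc1, Tk1 and Ube2c, one on the other strand, so their counts are uncertain where reads could be shared. A gene is called where edgeR's quasi-likelihood test gave a Benjamini-Hochberg adjusted p under 0.05 over all 14346 genes, and every adjusted p below comes from that fit unless another tool is named. Values are CPM, scaled by the library's total and its normalization factor, and differences are log2 fold changes.

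More members were called between the genotypes after ethanol than on control diet, though the interaction test, described below, called 0 members. With Tsc1 loss after ethanol, 28 of the 43 tested members were called higher and 2 lower, against 19.6% of all tested genes higher and 19.1% lower. The members' median log2 fold change was 1.291, beside -0.009 over all genes. With no filter on low counts 27 members were called higher, and the share of all genes in that fit is not given here. On control diet the same genotype comparison called 2 members higher, with 7.40% of all genes higher, and 2 lower, with 4.91% lower; the medians were 0.223 and 0.006. Ethanol in wild type called 1 member higher against 17.6% of all genes and 14 lower against 15.9%, with medians of -0.504 and -0.006. In the knockout, ethanol called 11 members higher against 7.0% of all genes and 3 lower against 7.11%, with medians of 0.464 and 0.003. These comparisons share libraries, so that each group enters more than 1 of them.

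The sets for entry and replication and the mitotic sets had different counts. Among the 22 tested mitotic members, Tsc1 loss after ethanol called 20 higher and 0 lower with a median log2 fold change of 1.76, beside 19.6% and 19.1% of all genes. Ethanol called 4 of them lower in wild type, near the 15.9% of all genes, and 9 higher in the knockout, beside 7.0%. Among the 21 tested entry and replication members, Tsc1 loss after ethanol called 8 higher and 2 lower with a median of 0.39. Ethanol in wild type called 10 of them lower and 1 higher, beside 15.9% and 17.6% of all genes. In the knockout it called 2 higher and 3 lower, beside 7.0% and 7.11%. Tsc1 loss on control diet called 0 mitotic members, but 19 of 22 were above 0, with a median of 0.43. Of the entry and replication members it called 2 higher and 2 lower, and 8 of 21 were above 0, with a median of -0.16. The difference between the 2 kinds of set was not tested.

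**Figure D1:**
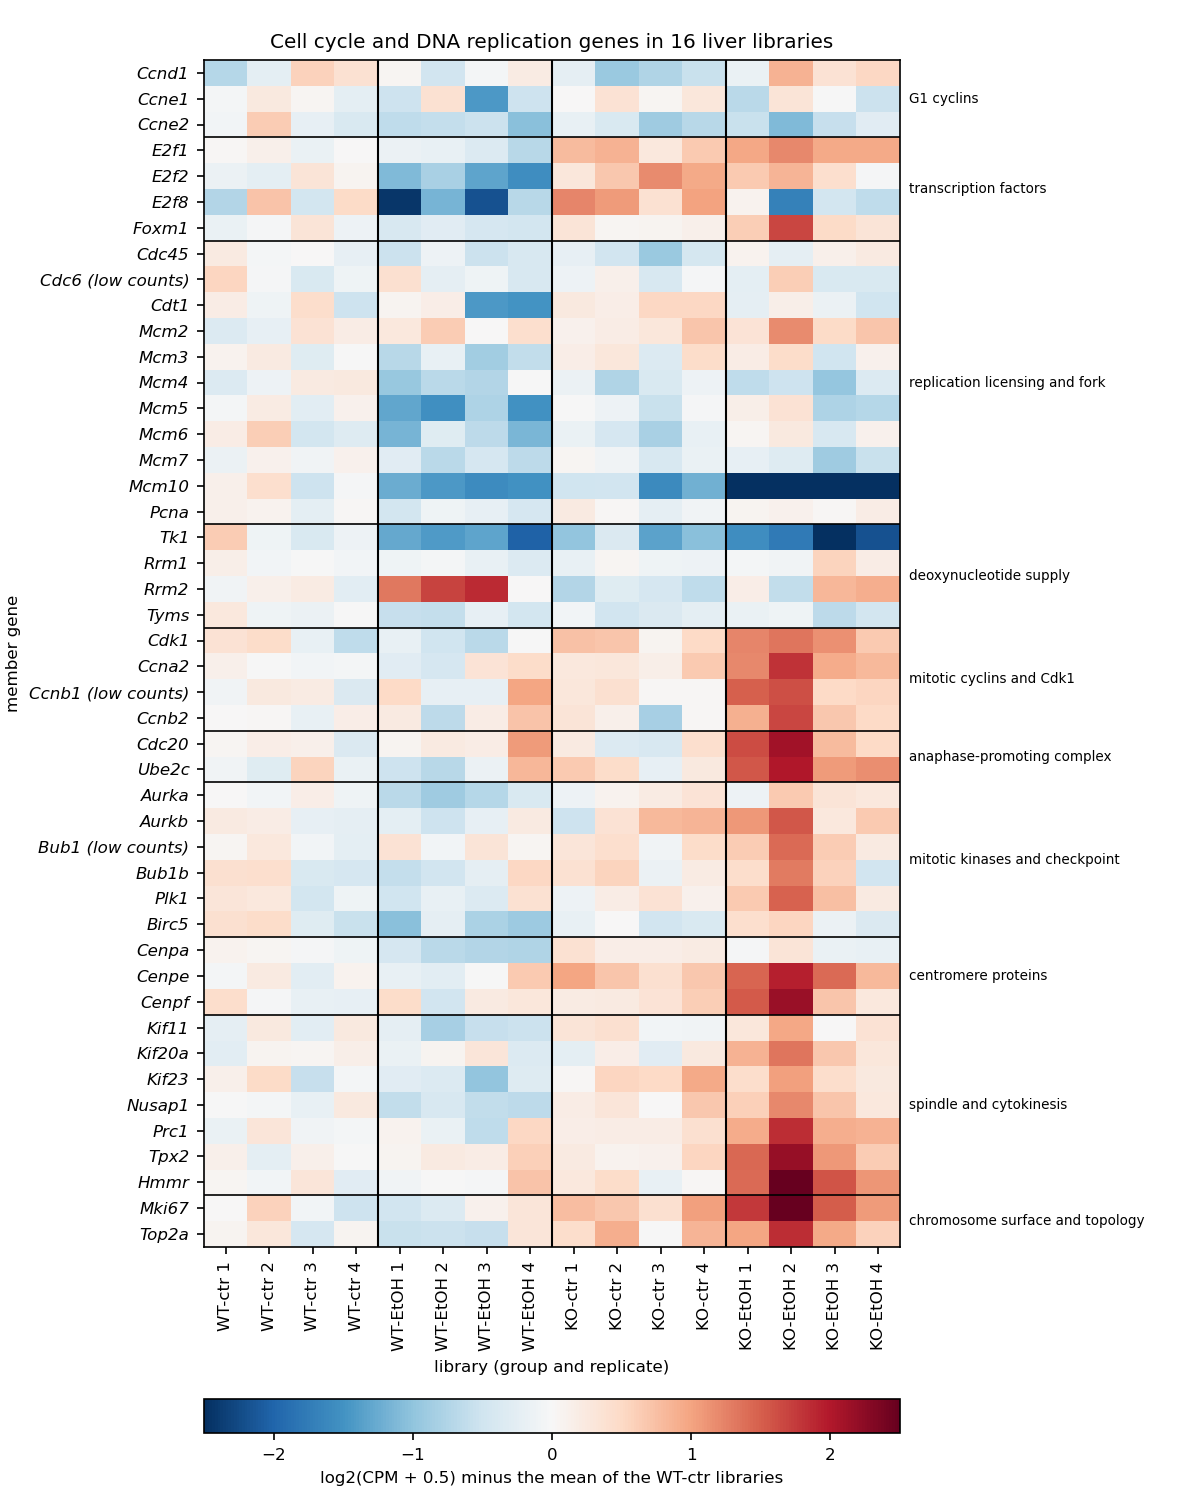
Each row is a member and each column a library; colour is log2(CPM + 0.5) minus the mean of the 4 WT-ctr libraries, with black lines between roles and groups. Library 2 of KO-EtOH stood above the other 3 of its group in 24 of 24 mitotic members, and Mcm10 was lowest in KO-EtOH. How often that library was highest over all genes was not counted.

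KO-EtOH library 2 stood apart in these genes. It was the highest of its group for 36 of the 46 members, and its summed CPM over the mitotic sets was 88.5, beside a mean of 43.8 in the other 3 libraries, 2.02 times as much. The share of all genes for which this library was highest was not counted, so the pattern may not be particular to the members. Some marker lists of other cells were also higher in this library. Its summed cholangiocyte markers were 2.94 times the mean of the other 3, and its monocyte and macrophage markers 2.44 times. Stellate cell markers were at 2.04 times, neutrophil markers 1.97 times, Kupffer cell markers 1.62 times and B and plasma cell markers 1.47 times. T and NK cell markers were at 1.11 times, endothelial markers 0.93 times, erythroid precursor markers 0.691 times and hepatocyte markers 0.591 times. Without this library, Tsc1 loss after ethanol called 26 members higher, and ethanol in the knockout called 5 higher. The shares of all genes called without it are not given here.

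Cell type markers and the mitochondrial share of counts also differed between the groups. The mitochondrial share was 3.51% to 4.219% in WT-ctr, 5.084% to 5.84% in WT-EtOH, 4.826% to 5.803% in KO-ctr and 5.896% to 9.646% in KO-EtOH, with library 2 the lowest of the last group. The 10 cholangiocyte markers summed to 71 to 97.4 CPM in WT-ctr, 57.3 to 68.4 in WT-EtOH, 298 to 557 in KO-ctr and 210 to 884 in KO-EtOH, and the defining markers Krt19 and Epcam were above 0 in every library. The 11 monocyte and macrophage markers summed to 69.3 to 111, 29.1 to 41.4, 89 to 131 and 94.1 to 270 in the same order. The 7 Kupffer cell markers summed to 115 to 165, 59 to 87.4, 125 to 199 and 99.9 to 205. The 8 hepatocyte markers summed to 101299 to 117804, 113943 to 132924, 57034 to 62722 and 49256 to 102310. Most of that sum was Alb, which spanned 77410 to 86942, 84755 to 100604, 31435 to 37228 and 29280 to 72547. The other defining marker, Hnf4a, overlapped between genotypes on each regimen, at 365 to 632, 636 to 867, 515 to 681 and 443 to 717. In the neutrophil list Ly6g and Mpo were at 0 in all WT-ctr libraries, and the 10 markers summed to at most 13.9 CPM in any library. The part of these cells and of the mitochondrial share in the members' differences was not tested.

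**Figure D2:**
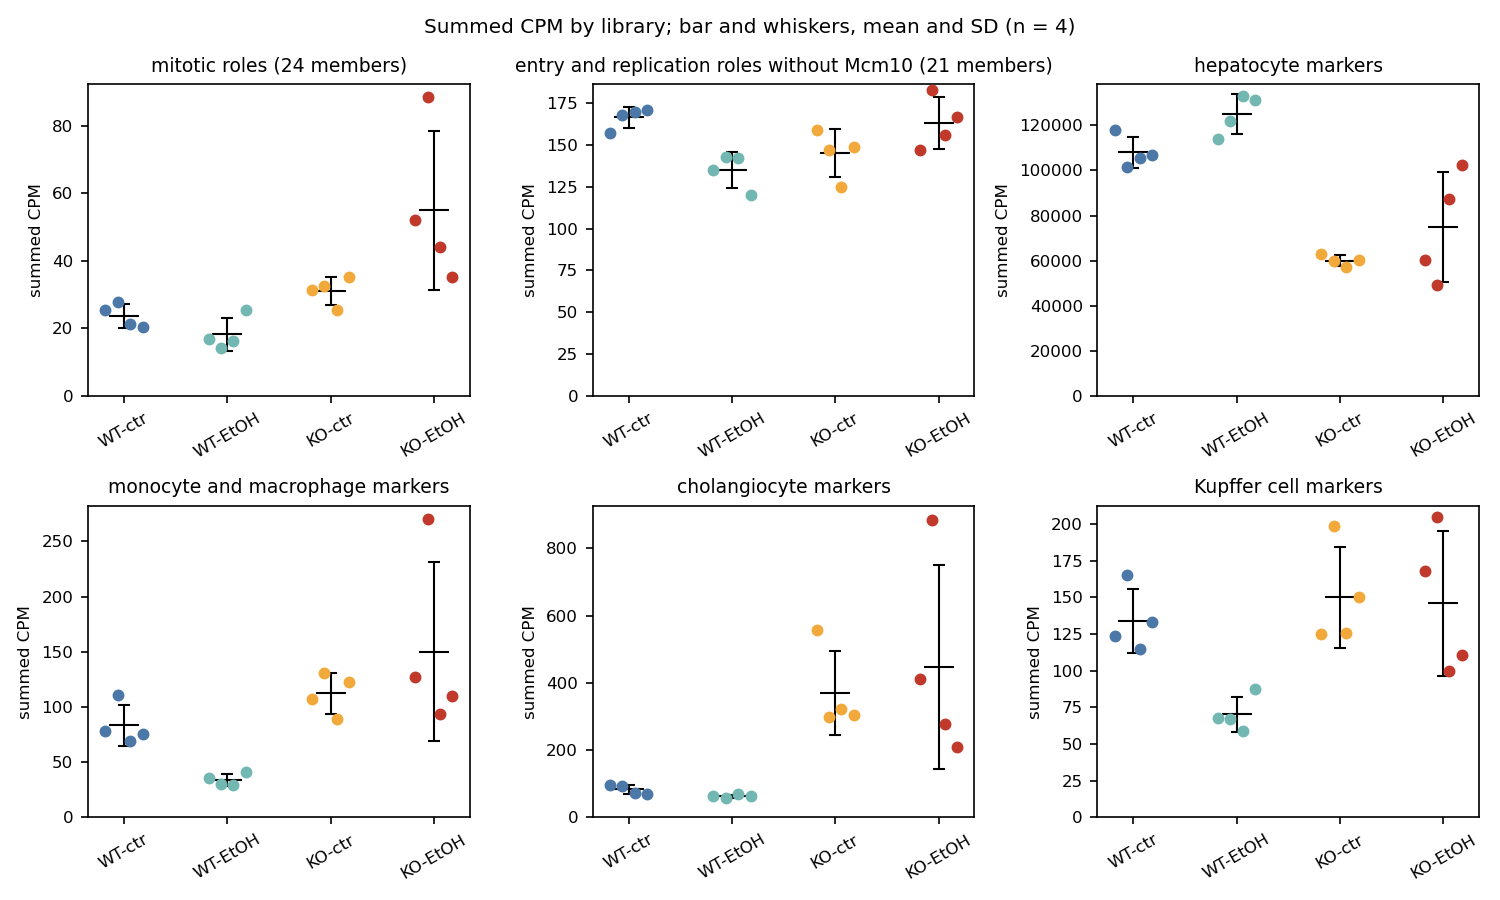
Each point is a library's summed CPM for mitotic members, for entry and replication members without Mcm10, or for a list of cell type markers; the bar and whiskers are the mean and SD of 4 libraries. Mitotic sums of 35.1 to 88.5 CPM in KO-EtOH lay above the 14.3 to 25.5 CPM of WT-EtOH, with library 2 of KO-EtOH high for mitotic members and cholangiocyte and macrophage markers.

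None of the 3 G1 cyclins was called between the genotypes on either regimen. Ccnd1, cyclin D1, was at 21.2, 29.7, 53.1 and 46.2 CPM in WT-ctr, 36.7, 25.2, 34.3 and 40.8 in WT-EtOH, 30.1, 18.3, 20.8 and 23.8 in KO-ctr, and 31.2, 65.1, 45.5 and 51 in KO-EtOH. In KO-EtOH every library lay above every KO-ctr library, and the other pairs of groups overlapped. Ccnd1 rose with ethanol in the knockout by 1.05 ± 0.27 (SE, adjusted p = 0.0205), while its genotype difference was -0.69 ± 0.27 (SE, adjusted p = 0.119) on control diet and 0.49 ± 0.27 (SE, adjusted p = 0.163) after ethanol. Ccne2, cyclin E2, which works with CDK2 at entry into S phase, was at 2.5, 4.37, 2.21 and 1.91 CPM in WT-ctr, 1.5, 1.56, 1.66 and 1.01 in WT-EtOH, 2.23, 1.89, 1.19 and 1.43 in KO-ctr, and 1.62, 0.964, 1.6 and 2.06 in KO-EtOH. All WT-EtOH libraries were below all WT-ctr ones, and Ccne2 fell with ethanol in wild type, with a log2 fold change of -0.94 ± 0.30 (SE, adjusted p = 0.0239), a call lost without WT-ctr library 2 or WT-EtOH library 4 and with limma voom. Its partner gene Ccne1 was called in no comparison, with 3.66 to 5.32 CPM in WT-ctr and 2.59 to 5.62 in KO-EtOH.

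Of the members, only E2f1 and E2f2 were called higher with Tsc1 loss on control diet. E2f1, an activator of replication genes, was at 3.39, 3.67, 2.89 and 3.37 CPM in WT-ctr, 2.94, 2.87, 2.5 and 1.86 in WT-EtOH, 6.07, 6.5, 4.11 and 5.52 in KO-ctr, and 6.92, 8.28, 6.89 and 6.86 in KO-EtOH. Every knockout library lay above every wild type library on each regimen. E2f1 rose with Tsc1 loss by 0.73 ± 0.18 (SE, adjusted p = 0.0122) on control diet and by 1.51 ± 0.18 (SE, adjusted p = 1.93e-05) after ethanol, and its control diet call held when any 1 library was left out. E2f2, another activator, was at 1.28, 1.17, 1.97 and 1.57 CPM in WT-ctr, 0.413, 0.625, 0.297 and 0.169 in WT-EtOH, 1.89, 2.66, 3.95 and 3.29 in KO-ctr, and 2.59, 3.06, 2.14 and 1.43 in KO-EtOH. Here WT-EtOH was the low group, with no overlap with any other group. The log2 fold changes were -1.98 ± 0.38 (SE, adjusted p = 0.000834) for ethanol in wild type, 2.61 ± 0.37 (SE, adjusted p = 7.39e-05) for Tsc1 loss after ethanol and 0.98 ± 0.31 (SE, adjusted p = 0.0477) for Tsc1 loss on control diet, the last lost on leaving out any 1 of 9 libraries.

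E2f8, a repressor that curbs E2F targets, fell with ethanol in both genotypes. It was at 4.45, 13, 5.47 and 11 CPM in WT-ctr, 1.03, 3.19, 1.31 and 4.61 in WT-EtOH, 18.8, 16.8, 10.2 and 16.1 in KO-ctr, and 8.3, 2.04, 5.52 and 4.8 in KO-EtOH. WT-EtOH and WT-ctr overlapped, and KO-EtOH lay below KO-ctr in all libraries. Ethanol gave a log2 fold change of -1.75 ± 0.49 (SE, adjusted p = 0.0136) in wild type and -1.58 ± 0.47 (SE, adjusted p = 0.0359) in the knockout, and Tsc1 loss after ethanol 1.03 ± 0.50 (SE, adjusted p = 0.118). Foxm1, the activator of mitotic genes, was at 0.389, 0.479, 0.737 and 0.406 CPM in WT-ctr, 0.258, 0.312, 0.238 and 0.225 in WT-EtOH, 0.744, 0.532, 0.54 and 0.584 in KO-ctr, and 1.02, 2.67, 0.89 and 0.749 in KO-EtOH. KO-EtOH lay above the other groups in every library, with library 2 far above the rest. Foxm1 rose with Tsc1 loss after ethanol by 2.35 ± 0.42 (SE, adjusted p = 0.000505), and its call for ethanol in the knockout, 1.15 ± 0.37 (SE, adjusted p = 0.0498), was lost on leaving out any 1 of 12 libraries. A part of the Foxm1 exons overlaps exons of Tex52 on the same strand.

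Among the licensing and fork proteins, 5 of the 10 tested fell with ethanol in wild type: Mcm3, Mcm5, Mcm6, Mcm7 and Mcm10. With Tsc1 loss after ethanol 4 were called higher, Mcm3, Mcm5, Mcm6 and the sliding clamp Pcna, and Mcm10 was called lower. The Mcm3 call was lost in 13 of 22 alternative runs for ethanol in wild type and in 5 of 22 for Tsc1 loss after ethanol. Mcm5, a subunit of the helicase ring, was at 2.28, 2.82, 1.9 and 2.61 CPM in WT-ctr, 0.671, 0.5, 1.19 and 0.506 in WT-EtOH, 2.35, 2.13, 1.46 and 2.34 in KO-ctr, and 2.71, 3.18, 1.19 and 1.25 in KO-EtOH. WT-EtOH was below WT-ctr in every library, and the groups given ethanol overlapped, with library 3 at 1.19 CPM in each. It fell with ethanol in wild type with a log2 fold change of -1.74 ± 0.36 (SE, adjusted p = 0.00147) and was higher with Tsc1 loss after ethanol by 1.53 ± 0.36 (SE, adjusted p = 0.00339). Mcm6 was at 7.62, 10.4, 4.67 and 5.22 CPM in WT-ctr, 2.69, 5.31, 4.04 and 2.76 in WT-EtOH, 5.9, 4.85, 3.57 and 5.79 in KO-ctr, and 6.92, 8, 4.93 and 7.24 in KO-EtOH, with log2 fold changes of -0.93 ± 0.27 (SE, adjusted p = 0.0157) and 0.88 ± 0.28 (SE, adjusted p = 0.0187) in the same comparisons; the groups overlapped in each. The first of these Mcm6 calls was lost without WT-ctr library 2 or WT-EtOH library 1 or 4, and the second without WT-EtOH library 1 or 4. Mcm5 and Mcm6 were chosen for values by library after their values were seen. Pcna spanned 12.8 to 16.4 CPM in WT-EtOH and 18 to 20.1 in KO-EtOH without overlap, with a log2 fold change of 0.39 ± 0.12 (SE, adjusted p = 0.0153), a call lost without WT-EtOH library 1. The loading and firing factors Cdt1 and Cdc45 were called in no comparison, and Cdc45 stood at 1.04 to 1.56 CPM in WT-ctr and 1.02 to 1.56 in KO-EtOH.

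Mcm10, which helps activate the loaded helicase, was the licensing and fork member called lower in the knockout. It was at 155, 190, 98.4 and 138 CPM in WT-ctr, 59.3, 51.9, 47.3 and 49 in WT-EtOH, 99.9, 102, 46.8 and 61.3 in KO-ctr, and 20.5, 10.2, 24.8 and 13.3 in KO-EtOH. KO-EtOH was below every library of the other groups, and WT-EtOH was below WT-ctr throughout. Mcm10 fell with ethanol in wild type, with a log2 fold change of -1.49 ± 0.29 (SE, adjusted p = 0.00122), and in the knockout, with -2.17 ± 0.30 (SE, adjusted p = 0.000534). Tsc1 loss gave -1.59 ± 0.29 (SE, adjusted p = 0.000837) after ethanol and -0.91 ± 0.28 (SE, adjusted p = 0.048) on control diet, the latter lost on leaving out any 1 of 12 libraries, and KO-EtOH differed from WT-ctr by -3.08 ± 0.31 (SE, adjusted p = 5.01e-06). Per kilobase of exon Mcm10 had the highest mean over all libraries of the 46 members, with 18.9 CPM per kilobase in WT-ctr beside 7.97 for Ccnd1. In WT-EtOH it was at 6.75, below Rrm2 at 8.95 and Ccnd1 at 7.27, and in KO-EtOH at 2.24, beside 10.2 for Ccnd1. None of its annotated exons overlaps another gene. In the authors' deposited table, whose folds are wild type over knockout, Mcm10 after ethanol was at a log2 fold of 1.589 and Mki67 at -2.33.

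The enzymes of deoxynucleotide supply did not move together. With ethanol in wild type Tk1 and Tyms were called lower and Rrm2 higher, and the Tyms call was lost in 6 of 22 alternative runs. Rrm1 was called higher with Tsc1 loss after ethanol, a call lost in 16 of 22. Tk1, thymidine kinase, was at 28.9, 17.1, 14 and 16.8 CPM in WT-ctr, 7.33, 6.62, 7.13 and 4.16 in WT-EtOH, 9.1, 14.2, 6.97 and 8.7 in KO-ctr, and 5.96, 5.05, 2.43 and 3.68 in KO-EtOH. Each ethanol group lay below its control diet group without overlap. Tk1 fell with ethanol by a log2 fold change of -1.61 ± 0.29 (SE, adjusted p = 0.000611) in wild type and -1.18 ± 0.30 (SE, adjusted p = 0.016) in the knockout, and was lower with Tsc1 loss on control diet at -0.98 ± 0.28 (SE, adjusted p = 0.0324), a call lost on leaving out any 1 of 5 libraries; the call in the knockout was lost without KO-ctr library 2 or KO-EtOH library 4. After ethanol its genotype difference was -0.56 ± 0.30 (SE, adjusted p = 0.154). Exons of Afmid on the opposite strand overlap Tk1, and Afmid was at 17.6 to 23.7 CPM in WT-ctr and 5.1 to 12.9 in KO-EtOH; the strand option used for counting is not stated. Rrm2, the regulated subunit of ribonucleotide reductase, was at 8.73, 10.2, 10.8 and 7.66 CPM in WT-ctr, 23.9, 30.8, 35.2 and 9.29 in WT-EtOH, 5.38, 7.45, 6.76 and 5.79 in KO-ctr, and 10.4, 5.9, 16.9 and 17.9 in KO-EtOH. Libraries 1, 2 and 3 of WT-EtOH were above all others, and library 4 lay within the WT-ctr range. Rrm2 was the only member called higher with ethanol in wild type, at 1.41 ± 0.36 (SE, adjusted p = 0.00748); in the knockout ethanol gave 1.01 ± 0.37 (SE, adjusted p = 0.0813). Its call lower with Tsc1 loss after ethanol, -0.96 ± 0.35 (SE, adjusted p = 0.0434), was lost on leaving out any 1 of 13 libraries.

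**Figure D3:**
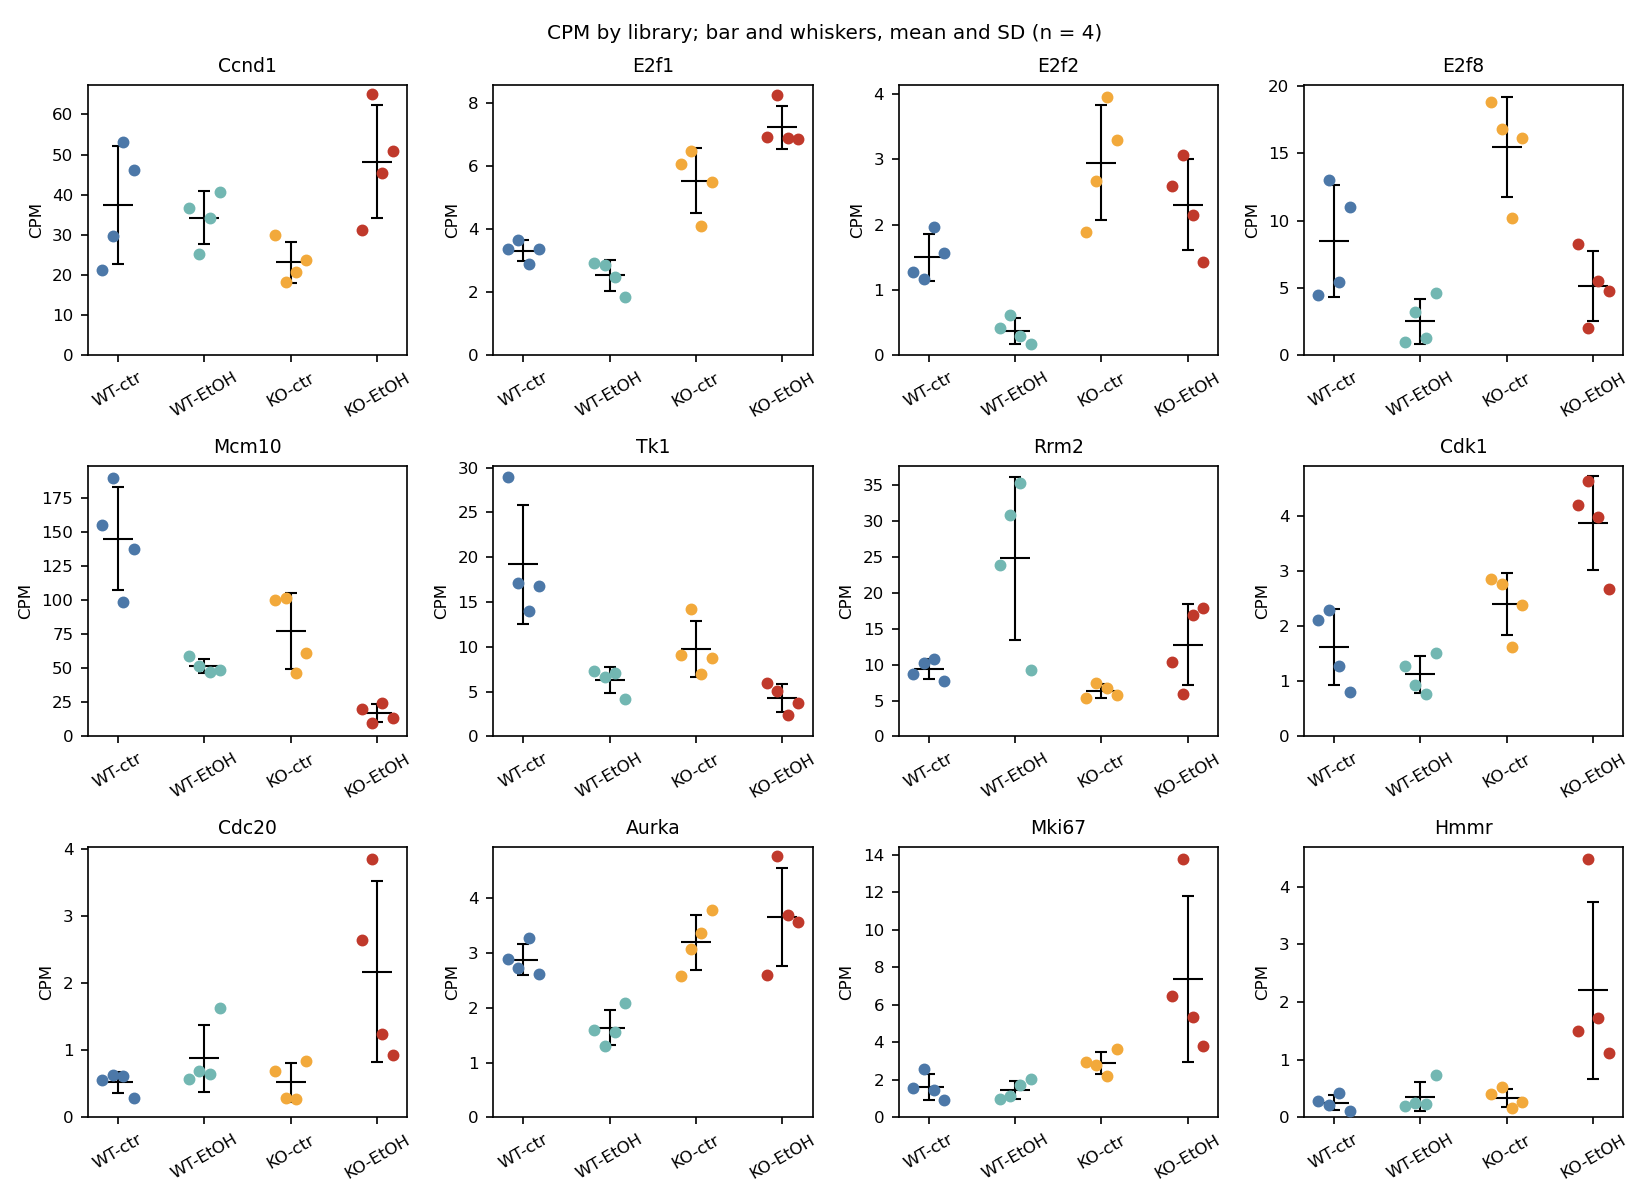
CPM of 12 members in each library, with the mean and SD of 4 libraries as bar and whiskers and axes starting at 0. E2f1, Cdk1, Mki67 and Hmmr were highest in KO-EtOH, Mcm10 and Tk1 fell with ethanol in each genotype, and E2f2 was lowest in WT-EtOH.

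Of the 3 tested mitotic cyclin and Cdk1 genes, Cdk1 and Ccna2 were called higher with Tsc1 loss after ethanol. Cdk1 was at 2.11, 2.29, 1.29 and 0.812 CPM in WT-ctr, 1.29, 0.937, 0.773 and 1.52 in WT-EtOH, 2.86, 2.78, 1.62 and 2.39 in KO-ctr, and 4.21, 4.65, 3.98 and 2.68 in KO-EtOH. Every KO-EtOH library lay above every WT-EtOH and WT-ctr library. Cdk1 rose with Tsc1 loss after ethanol by 1.77 ± 0.32 (SE, adjusted p = 0.000479). Ccna2, cyclin A2, was at 1.06, 0.905, 0.86 and 0.87 CPM in WT-ctr, 0.671, 0.562, 1.31 and 1.46 in WT-EtOH, 1.2, 1.24, 1.08 and 1.75 in KO-ctr, and 2.77, 4.48, 2.2 and 2 in KO-EtOH. KO-EtOH lay above all other groups in every library. Ccna2 rose with Tsc1 loss after ethanol by 1.51 ± 0.32 (SE, adjusted p = 0.00176) and with ethanol in the knockout by 1.11 ± 0.31 (SE, adjusted p = 0.0261). Ccnb2, cyclin B2, was at 0.779, 0.799, 0.614 and 0.928 CPM in WT-ctr, 0.981, 0.312, 0.951 and 1.58 in WT-EtOH, 1.09, 0.886, 0.216 and 0.796 in KO-ctr, and 1.87, 3.57, 1.54 and 1.31 in KO-EtOH. KO-EtOH overlapped WT-EtOH through library 4 of WT-EtOH and lay above KO-ctr throughout. Ccnb2 rose with ethanol in the knockout by 1.48 ± 0.45 (SE, adjusted p = 0.0371), and its genotype difference after ethanol was 1.11 ± 0.44 (SE, adjusted p = 0.054). Ccnb1, not tested, spanned 0.0594 to 0.788 CPM in WT-EtOH and 0.416 to 1.47 in KO-EtOH.

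The anaphase-promoting complex was represented by its activator Cdc20 and its ubiquitin-conjugating enzyme Ube2c. Cdc20 was at 0.556, 0.639, 0.614 and 0.29 CPM in WT-ctr, 0.568, 0.687, 0.654 and 1.63 in WT-EtOH, 0.687, 0.295, 0.27 and 0.849 in KO-ctr, and 2.65, 3.86, 1.25 and 0.936 in KO-EtOH. Library 4 of WT-EtOH reached into the KO-EtOH range, and KO-EtOH lay above KO-ctr in every library. Cdc20 rose with ethanol in the knockout by 2.03 ± 0.49 (SE, adjusted p = 0.0123) and with Tsc1 loss after ethanol by 1.29 ± 0.47 (SE, adjusted p = 0.037); the second call was lost on leaving out any 1 of 5 libraries. Ube2c was at 0.445, 0.319, 0.983 and 0.406 CPM in WT-ctr, 0.207, 0.125, 0.416 and 1.29 in WT-EtOH, 1.09, 0.886, 0.378 and 0.69 in KO-ctr, and 2.47, 3.52, 1.6 and 1.75 in KO-EtOH. KO-EtOH was above all other groups. It rose with Tsc1 loss after ethanol by 2.17 ± 0.53 (SE, adjusted p = 0.00418) and with ethanol in the knockout by 1.62 ± 0.50 (SE, adjusted p = 0.0409), the last lost on leaving out any 1 of 8 libraries.

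Of the mitotic kinases and checkpoint proteins, Tsc1 loss after ethanol called 4 of 5 tested higher: Aurka, Aurkb, Plk1 and Birc5. Aurka, the kinase of spindle poles, was at 2.89, 2.72, 3.26 and 2.61 CPM in WT-ctr, 1.6, 1.31, 1.55 and 2.08 in WT-EtOH, 2.58, 3.07, 3.35 and 3.77 in KO-ctr, and 2.59, 4.76, 3.68 and 3.56 in KO-EtOH. WT-EtOH lay below every other library. Aurka fell with ethanol in wild type, with a log2 fold change of -0.80 ± 0.21 (SE, adjusted p = 0.00846), and was higher with Tsc1 loss after ethanol by 1.15 ± 0.21 (SE, adjusted p = 0.000625). Aurkb, its relative in the chromosomal passenger complex, had the largest of these differences, 2.60 ± 0.78 (SE, adjusted p = 0.0144), on 123 counts over all libraries, and was not called by limma voom. Birc5, survivin, of the same complex, fell with ethanol in wild type with a log2 fold change of -1.27 ± 0.42 (SE, adjusted p = 0.0289), lost on leaving out any 1 of 5 libraries and with limma voom. Its call for Tsc1 loss after ethanol was lost without WT-EtOH library 1 and with limma voom. The checkpoint kinase Bub1b was called in no comparison; its levels were 0.31 to 1.24 CPM in WT-EtOH and 0.374 to 2.5 in KO-EtOH.

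All 3 centromere proteins were higher with Tsc1 loss after ethanol. Cenpa, the histone H3 variant of centromeres, was at 5.95, 5.75, 5.41 and 5.16 CPM in WT-ctr, 4.03, 3.31, 3.15 and 3.1 in WT-EtOH, 7.39, 6.26, 6.32 and 6.53 in KO-ctr, and 5.42, 7.09, 4.93 and 4.8 in KO-EtOH. Knockout libraries on each regimen lay above the wild type libraries of that regimen. Cenpa fell with ethanol in wild type, with a log2 fold change of -0.71 ± 0.15 (SE, adjusted p = 0.0021), and was higher with Tsc1 loss after ethanol by 0.71 ± 0.15 (SE, adjusted p = 0.00197). Cenpe, a kinetochore motor, was at 0.223, 0.373, 0.123 and 0.29 CPM in WT-ctr, 0.155, 0.125, 0.238 and 0.675 in WT-EtOH, 0.973, 0.709, 0.486 and 0.69 in KO-ctr, and 1.56, 2.38, 1.48 and 0.811 in KO-EtOH. KO-EtOH and KO-ctr lay above their wild type counterparts. The genotype difference of Cenpe was 2.36 ± 0.46 (SE, adjusted p = 0.000985) after ethanol and 1.46 ± 0.50 (SE, adjusted p = 0.0666) on control diet, and ethanol in the knockout gave 1.13 ± 0.41 (SE, adjusted p = 0.078). Cenpe had 196 counts over all libraries.

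All 7 spindle and cytokinesis proteins were higher with Tsc1 loss after ethanol, and 4 rose with ethanol in the knockout. Nusap1, which bundles spindle microtubules, was at 0.89, 0.852, 0.737 and 1.16 CPM in WT-ctr, 0.413, 0.562, 0.416 and 0.394 in WT-EtOH, 1.09, 1.24, 0.919 and 1.75 in KO-ctr, and 1.62, 2.72, 1.78 and 1.19 in KO-EtOH. WT-EtOH lay below every other library. Nusap1 fell with ethanol in wild type, with a log2 fold change of -1.02 ± 0.33 (SE, adjusted p = 0.0231), and was higher with Tsc1 loss after ethanol by 2.03 ± 0.31 (SE, adjusted p = 0.000145); the first call was lost without WT-ctr library 4 or WT-EtOH library 1 or 4 and with no filter on low counts. Hmmr, a spindle assembly factor, was at 0.278, 0.213, 0.43 and 0.116 CPM in WT-ctr, 0.207, 0.25, 0.238 and 0.732 in WT-EtOH, 0.401, 0.532, 0.162 and 0.265 in KO-ctr, and 1.5, 4.48, 1.72 and 1.12 in KO-EtOH. KO-EtOH lay above all other libraries, with library 2 highest. Hmmr rose with ethanol in the knockout by 2.69 ± 0.51 (SE, adjusted p = 0.00301) and with Tsc1 loss after ethanol by 2.61 ± 0.51 (SE, adjusted p = 0.000972). Of its 218 counts 151 were in KO-EtOH, the group through which it passed the filter, and both calls held with no filter.

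Tpx2, an activator of Aurora A, was at 0.556, 0.319, 0.553 and 0.464 CPM in WT-ctr, 0.517, 0.625, 0.594 and 0.957 in WT-EtOH, 0.63, 0.532, 0.54 and 0.902 in KO-ctr, and 2.11, 3.86, 1.54 and 0.998 in KO-EtOH. KO-EtOH was above every other library, and Tpx2 rose with ethanol in the knockout by 1.70 ± 0.37 (SE, adjusted p = 0.00724). Prc1, of the central spindle, was at 0.445, 0.799, 0.491 and 0.522 CPM in WT-ctr, 0.62, 0.437, 0.178 and 1.01 in WT-EtOH, 0.687, 0.709, 0.703 and 0.902 in KO-ctr, and 1.5, 3.29, 1.48 and 1.43 in KO-EtOH. KO-EtOH lay above every other library, and Prc1 rose by 1.36 ± 0.38 (SE, adjusted p = 0.0267) with ethanol in the knockout, a call lost on leaving out any 1 of 4 libraries. Kif20a, a cytokinesis motor, was at 0.445, 0.692, 0.676 and 0.754 CPM in WT-ctr, 0.517, 0.687, 0.892 and 0.394 in WT-EtOH, 0.458, 0.768, 0.432 and 0.849 in KO-ctr, and 1.56, 2.38, 1.31 and 0.873 in KO-EtOH. Library 4 of KO-EtOH fell within the WT-EtOH range, and Kif20a rose by 1.28 ± 0.35 (SE, adjusted p = 0.0222) with ethanol in the knockout, lost on leaving out any 1 of 3 libraries. Cdc23 on the opposite strand overlaps Kif20a exons. Kif11, the motor that separates spindle poles and the member of this set with the highest mean CPM, was at 0.835, 1.33, 0.799 and 1.33 CPM in WT-ctr, 0.826, 0.375, 0.535 and 0.563 in WT-EtOH, 1.43, 1.54, 0.973 and 0.955 in KO-ctr, and 1.38, 2.55, 1.07 and 1.5 in KO-EtOH. KO-EtOH lay above WT-EtOH in every library and overlapped KO-ctr, and Kif11 was higher with Tsc1 loss after ethanol by 1.48 ± 0.34 (SE, adjusted p = 0.00276).

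Mki67, the proliferation marker Ki-67 that coats mitotic chromosomes, was at 1.56, 2.56, 1.47 and 0.928 CPM in WT-ctr, 0.981, 1.12, 1.72 and 2.03 in WT-EtOH, 2.98, 2.78, 2.22 and 3.66 in KO-ctr, and 6.5, 13.8, 5.34 and 3.81 in KO-EtOH. Every KO-EtOH library was above every library of the other 3 groups. Mki67 rose with Tsc1 loss after ethanol by 2.33 ± 0.38 (SE, adjusted p = 0.000263) and with ethanol in the knockout by 1.34 ± 0.36 (SE, adjusted p = 0.0215); it was at 0.83 ± 0.39 (SE, adjusted p = 0.183) for Tsc1 loss on control diet and -0.16 ± 0.40 (SE, adjusted p = 0.789) for ethanol in wild type. With any 1 library left out, the first of these stayed between 1.83 and 2.55 and was called each time, and the second was lost on leaving out any 1 of 4 libraries. Top2a, the topoisomerase that untangles chromosomes, was at 1.39, 1.7, 0.86 and 1.39 CPM in WT-ctr, 0.723, 0.749, 0.713 and 1.74 in WT-EtOH, 1.95, 2.9, 1.3 and 2.76 in KO-ctr, and 3.07, 5.96, 2.97 and 2.18 in KO-EtOH. KO-EtOH lay above WT-EtOH throughout and overlapped KO-ctr, and Top2a rose with Tsc1 loss after ethanol by 1.84 ± 0.38 (SE, adjusted p = 0.00134).

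**Figure D4:**
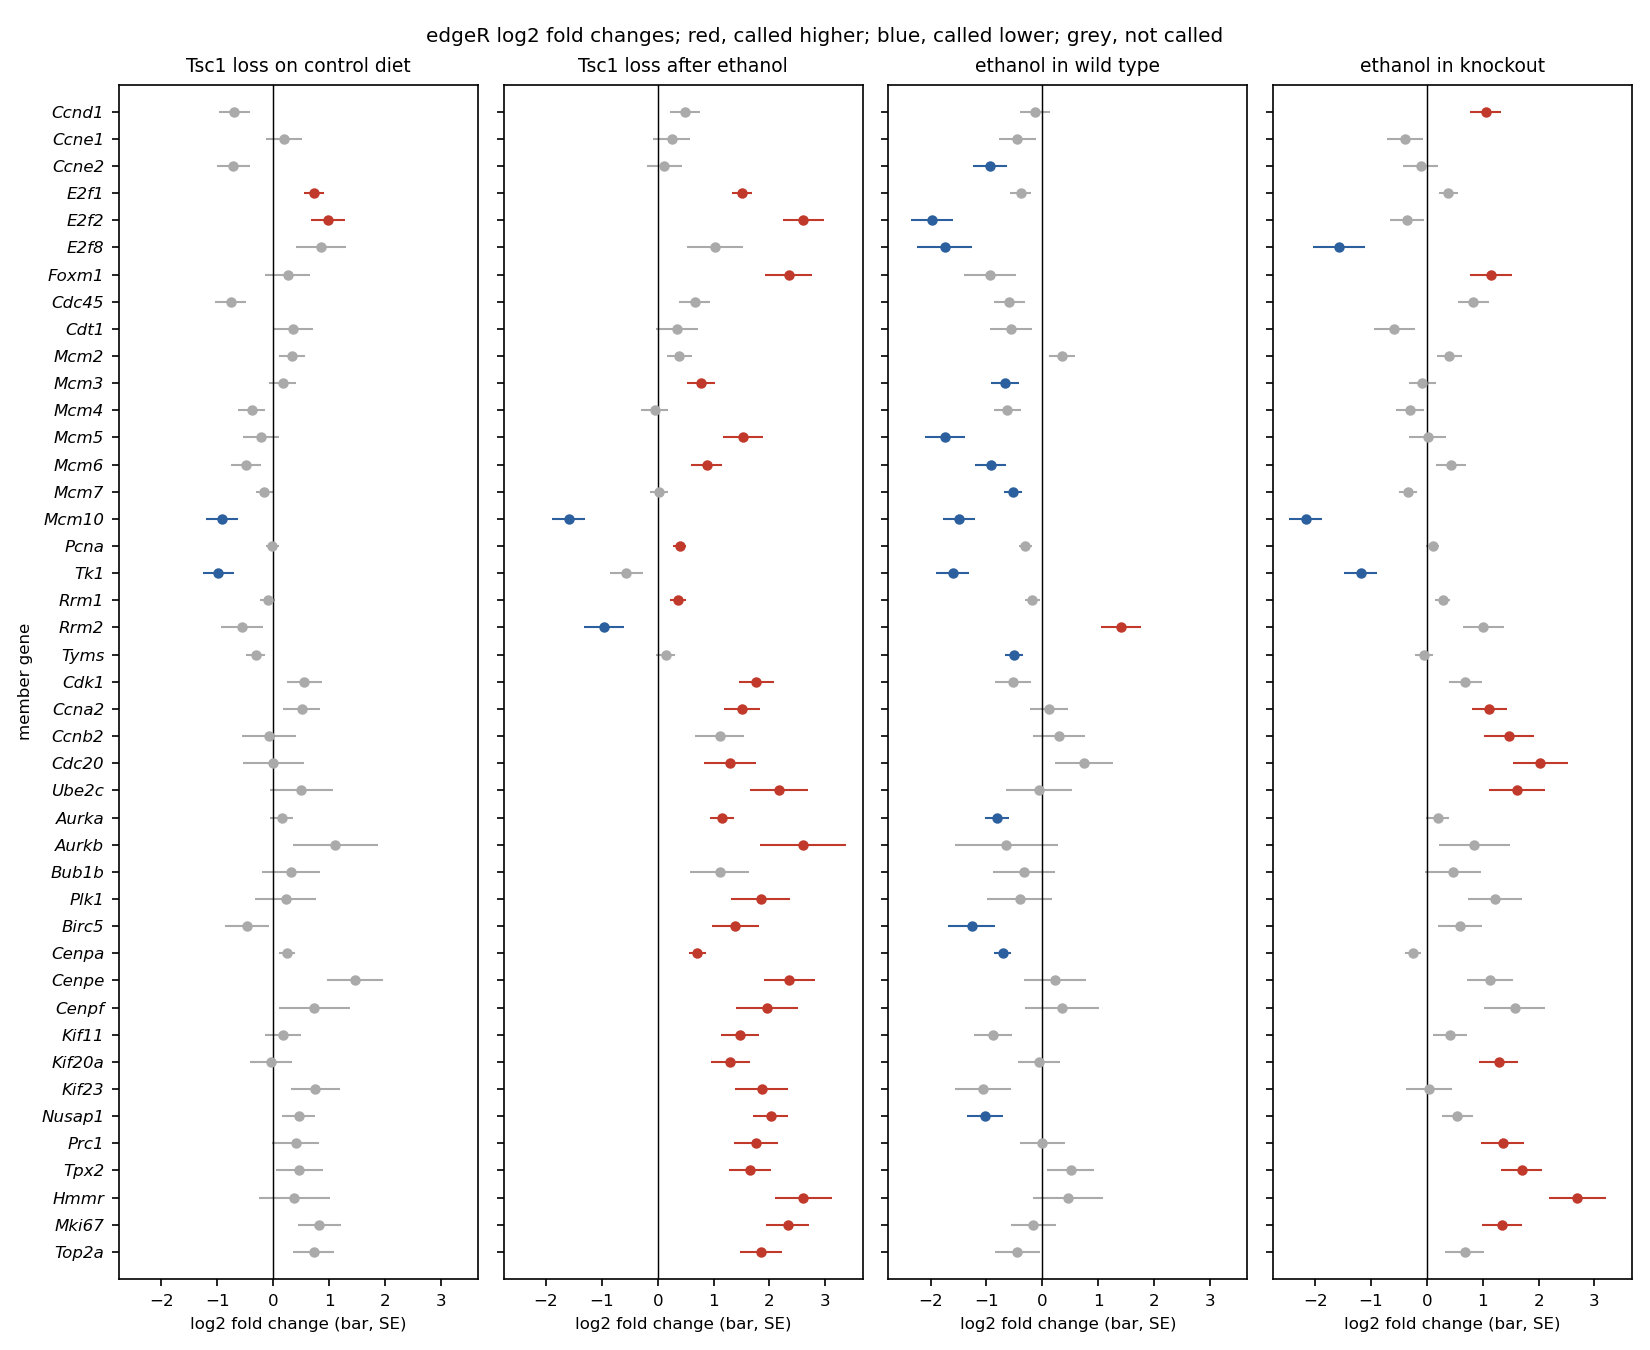
Log2 fold change of each of the 43 tested members in 4 comparisons, with SE as the bar; red was called higher, blue lower and grey not called. Red points fill the mitotic rows for Tsc1 loss after ethanol, where 20 of 22 were called higher, and blue points lie among the replication rows for ethanol in wild type.

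The counts for ethanol in the knockout moved with single libraries. The shares of all genes called in the fits with 1 library left out are not given here, so the changes may not be particular to the members. The 11 members called higher became 6, 4 and 3 without KO-ctr library 1, 2 or 3, and 5 without KO-EtOH library 2. The 3 called lower, E2f8, Mcm10 and Tk1, became 1 without KO-ctr library 2 or KO-EtOH library 4. The calls of Ccnd1, Ccna2, Ccnb2 and E2f8 in this comparison were lost on leaving out any 1 of 3, 4, 4 and 6 libraries, respectively. For ethanol in wild type the 14 called lower became 9 without WT-EtOH library 4, and for Tsc1 loss after ethanol the 28 called higher stayed between 22 and 29. The KO-EtOH group against WT-ctr, which differs in genotype and regimen together, called 19 members higher beside 20.6% of all genes and 5 lower beside 18.6%; the 5 became 3 without WT-ctr library 4 or KO-EtOH library 1 and 2 without KO-EtOH library 3.

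Whether ethanol acted differently in the 2 genotypes was tested by the interaction, the genotype difference after ethanol minus that on control diet. In edgeR 0 members were called higher, beside 0.523% of all genes, and 0 lower, beside 1.28%. At an unadjusted p under 0.05, 23 members were above 0 and 0 below. DESeq2 called 8 members higher and 0 lower, and limma voom 0 and 0. The shares of all genes at the unadjusted threshold and in these tools are not given here, so these counts cannot be set against them. The estimate was above 0 for 40 of the 43 members, with a median of 1.119 beside 0.001 over all genes. The lowest adjusted p was that of Nusap1, 1.57 ± 0.43 (SE, adjusted p = 0.0698), and Mki67 was at 1.50 ± 0.54 (SE, adjusted p = 0.148), Foxm1 at 2.09 ± 0.59 (SE, adjusted p = 0.0793) and Ccnd1 at 1.18 ± 0.39 (SE, adjusted p = 0.118). A difference between genotypes in the response of any 1 member was not detected by edgeR at this threshold.

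The remaining cell cycle genes were taken from 8 lists, of which 154 of 206 genes were tested. Over all genes Tsc1 loss after ethanol called 19.6% higher and 19.1% lower, and ethanol in wild type 17.6% and 15.9%. Origin, helicase and fork proteins other than the members had 39 of 46 tested, of which ethanol in wild type called 22 lower and 4 higher, and Tsc1 loss after ethanol 15 higher and 4 lower. Other spindle, cytokinesis and condensin proteins had 26 of 41 tested, of which Tsc1 loss after ethanol called 11 higher and 1 lower. Other kinetochore and checkpoint proteins had 23 of 37 tested, with 8 higher and 2 lower. Other cyclins, CDKs and their switches had 18 of 19 tested, with 4 higher and 3 lower, a share near that of all genes, and growth factor and early proliferation signals of liver had 16 of 19 tested, with 3 higher and 4 lower. The other E2F and MuvB factors had 13 of 14 tested, with 2 higher and 2 lower, and homologous recombination genes 9 of 17 tested, with 3 higher and 0 lower. Median log2 fold changes for Tsc1 loss after ethanol were 0.342, 0.664, 0.207, 0.095, -0.311, 0.00 and 0.374 in that order.

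Of the 10 tested CDK inhibitors and pocket proteins, ethanol in wild type called 3 higher, beside 17.6% of all genes, and 1 lower, beside 15.9%. The 3 were Cdkn1a, Btg2 and Btg1, the last with a call lost on leaving out any 1 of 11 libraries. Cdkn1a, p21, which blocks cyclin-CDK complexes and is induced by p53, was at 1.06, 3.35, 1.66 and 1.86 CPM in WT-ctr, 117, 117, 204 and 225 in WT-EtOH, 3.89, 2.66, 8.27 and 3.77 in KO-ctr, and 13.5, 50.9, 52.4 and 35.9 in KO-EtOH. Each ethanol group lay above its control diet group without overlap, and WT-EtOH lay above KO-EtOH. Cdkn1a rose with ethanol by 6.37 ± 0.54 (SE, adjusted p = 2.78e-06) in wild type and by 3.03 ± 0.46 (SE, adjusted p = 0.00114) in the knockout, so that Tsc1 loss after ethanol gave -2.12 ± 0.42 (SE, adjusted p = 0.00161). The interaction was -3.34 ± 0.66 (SE, adjusted p = 0.0267), lost on leaving out any 1 of 6 libraries and where genes with low counts were not filtered out. Btg2, an antiproliferative gene also induced by p53, was at 7.73, 15.2, 8.36 and 10.1 CPM in WT-ctr, 237, 85.1, 62.1 and 310 in WT-EtOH, 19.9, 20.8, 39.7 and 35.7 in KO-ctr, and 25.6, 38.2, 41.6 and 55 in KO-EtOH. WT-EtOH lay above all other groups without overlap. Btg2 rose with ethanol in wild type by 4.06 ± 0.51 (SE, adjusted p = 5.74e-05), and its interaction was -3.60 ± 0.66 (SE, adjusted p = 0.0226), lost without WT-ctr library 1, 3 or 4. Of the 10 tested genes in this list Tsc1 loss after ethanol called 1 higher and 2 lower, beside 19.6% and 19.1% of all genes.

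A further 3 list genes passed the interaction test, which called 0.523% of all genes higher and 1.28% lower. Pole, the catalytic subunit of the leading-strand polymerase, was at 1.78, 1.81, 2.15 and 2.26 CPM in WT-ctr, 1.08, 0.562, 0.832 and 0.506 in WT-EtOH, 2.23, 2.01, 1.95 and 2.34 in KO-ctr, and 2.53, 2.16, 2.14 and 2.5 in KO-EtOH. WT-EtOH was below every library of the other groups, and the interaction was 1.53 ± 0.32 (SE, adjusted p = 0.0267), lost on leaving out any 1 of 7 libraries and with no filter on low counts. Smc2, a condensin subunit, was at 2.61, 3.41, 2.33 and 4.24 CPM in WT-ctr, 1.5, 1.12, 0.892 and 1.63 in WT-EtOH, 4.01, 3.66, 3.24 and 4.09 in KO-ctr, and 4.93, 6.64, 3.74 and 5.49 in KO-EtOH. WT-EtOH again lay below every other library, with an interaction of 1.75 ± 0.33 (SE, adjusted p = 0.02), called with any 1 library left out. Tipin, a partner of the replication fork protection complex, went the other way, at 5.17, 5.59, 5.71 and 6.21 CPM in WT-ctr, 8.78, 8.49, 8.32 and 8.05 in WT-EtOH, 5.61, 4.55, 4.81 and 5.25 in KO-ctr, and 4.99, 4.31, 4.1 and 4.12 in KO-EtOH. WT-EtOH was above every other library, and the interaction was -0.78 ± 0.18 (SE, adjusted p = 0.0346), lost on leaving out any 1 of 11 libraries, with no filter and with the replicate block.

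Further list genes with the smallest p in their lists were named by the same rule. With Tsc1 loss after ethanol Racgap1, a cytokinesis regulator, was higher by 2.37 ± 0.43 (SE, adjusted p = 0.000548), and the microtubule destabilizer Stmn1 spanned 0.207 to 1.29 CPM in WT-EtOH and 2.06 to 4.54 in KO-EtOH. Incenp, the scaffold of the chromosomal passenger complex, was higher by 1.24 ± 0.21 (SE, adjusted p = 0.000352) and the checkpoint protein Mad2l1 by 1.06 ± 0.23 (SE, adjusted p = 0.00188). The pocket protein Rbl1 was higher by 1.07 ± 0.23 (SE, adjusted p = 0.0017), cyclin D2 (Ccnd2) by 1.18 ± 0.20 (SE, adjusted p = 0.000369) and the phosphatase Cdc25b by 1.34 ± 0.31 (SE, adjusted p = 0.00287). The E2F family repressors E2f6 and E2f7 went opposite ways, at 0.70 ± 0.10 (SE, adjusted p = 8.80e-05) and -2.02 ± 0.54 (SE, adjusted p = 0.00721). Chek2 and Topbp1, of the DNA damage response, were higher by 1.67 ± 0.38 (SE, adjusted p = 0.00281) and 0.85 ± 0.14 (SE, adjusted p = 0.000264), and each was lower with ethanol in wild type, at -1.51 ± 0.38 (SE, adjusted p = 0.00621) and -0.65 ± 0.14 (SE, adjusted p = 0.0021). Igf2bp3, called higher, was at 8.9 CPM in KO-EtOH library 2 and at 0.361, 0.594 and 0.561 in the other 3.

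The list genes named for ethanol in wild type went both ways. Cdk2, the partner of cyclin E, was at 16.2, 18.6, 11.8 and 16.4 CPM in WT-ctr, 7.7, 7.18, 7.31 and 5.01 in WT-EtOH, 16.7, 15.1, 14.1 and 14.3 in KO-ctr, and 6.92, 8.68, 5.58 and 6.99 in KO-EtOH. Each ethanol group lay below its control diet group, and Cdk2 fell in wild type with a log2 fold change of -1.21 ± 0.17 (SE, adjusted p = 5.55e-05). The kinetochore subunit Spc24 fell with -1.69 ± 0.31 (SE, adjusted p = 0.000586) and the histone chaperone Rbbp4 with -0.92 ± 0.12 (SE, adjusted p = 4.06e-05). Chaf1b, of chromatin assembly factor, rose by 1.66 ± 0.24 (SE, adjusted p = 8.55e-05) and the chromatin protein Hmgb2 by 1.93 ± 0.39 (SE, adjusted p = 0.00134). Myc, an early growth response gene, was at 2.89, 5.43, 3.38 and 9.46 CPM in WT-ctr, 59.5, 20.7, 30.6 and 27.8 in WT-EtOH, 10, 10.6, 7.46 and 3.45 in KO-ctr, and 14.3, 14.6, 9.8 and 16.3 in KO-EtOH. Every WT-EtOH library lay above every other library, Myc rose with ethanol in wild type by 2.71 ± 0.43 (SE, adjusted p = 0.000293), and Tsc1 loss after ethanol gave -1.33 ± 0.40 (SE, adjusted p = 0.0161), lost without WT-EtOH library 1 or KO-EtOH library 3 and with no filter on low counts.

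**Figure D5:**
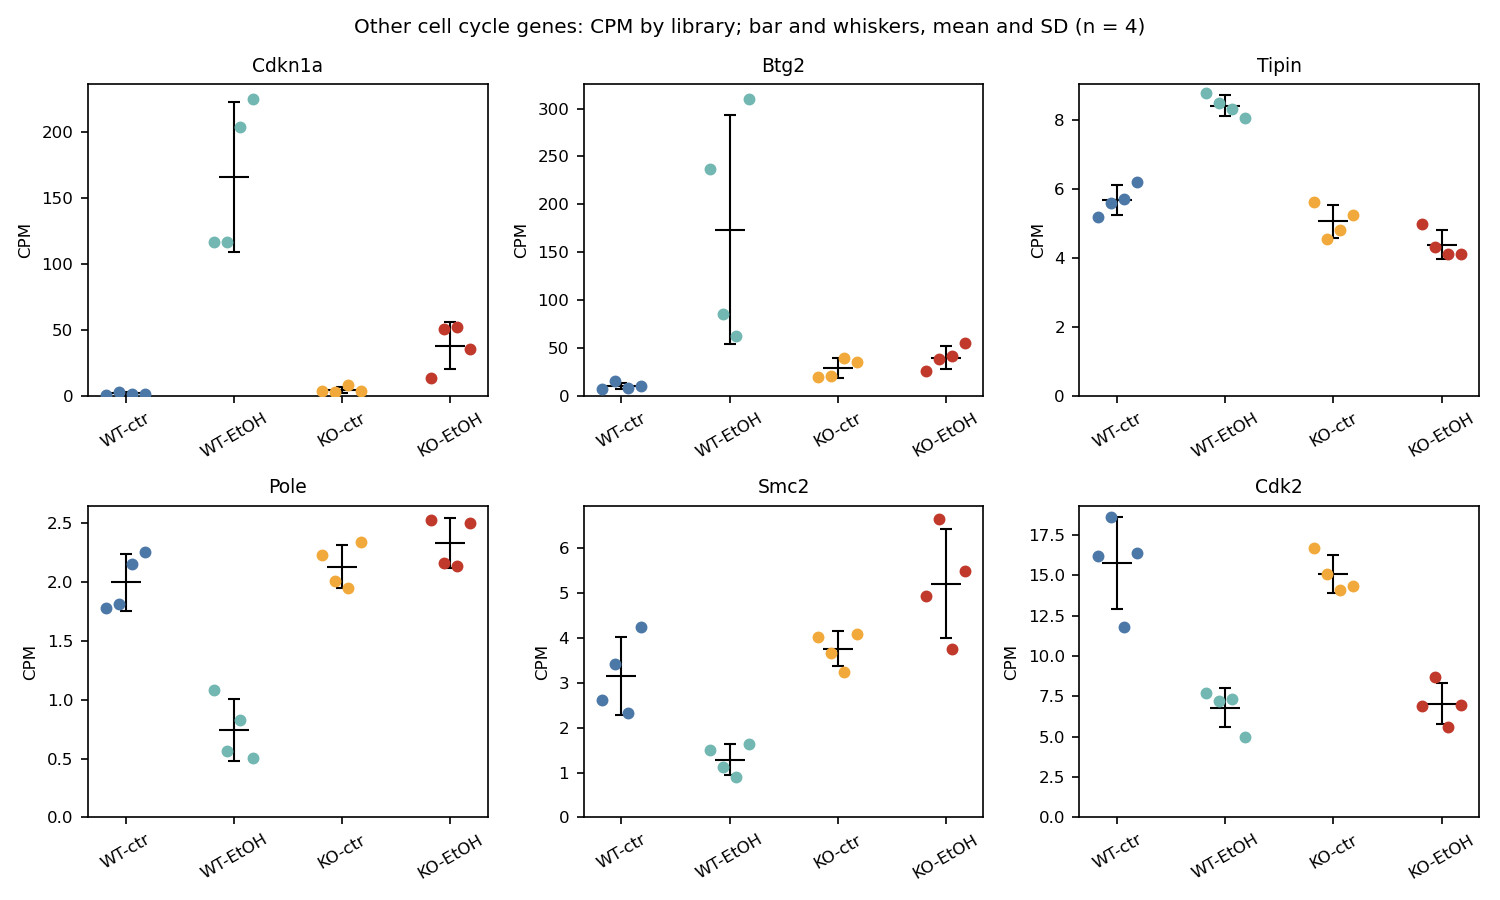
CPM of 6 cell cycle genes outside the members in each library, with the mean and SD of 4 libraries. Cdkn1a and Btg2 were highest in WT-EtOH, and Pole and Smc2 were lowest there.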

How the data were processed

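Livers were snap frozen, total RNA was extracted with Trizol, and stranded poly(A) libraries were read as single 75 bp reads, per the labels' protocols. The submitters' processing notes name Trimmomatic 0.36, HISAT2 2.1.0, HTSeq and the build GRCm38. They state no annotation release or strand option. The values used are the raw counts per gene that the authors deposited in 1 table, and the authors' deposited table of log2 fold changes and adjusted p-values was used where named. Rows with no symbol, 7436 of 55487 and 0.227% to 0.479% of counts, were left out. In edgeR 4.0.16 (R 4.3.3), genes were filtered with filterByExpr (minimum count 10), scaled by TMM and fitted in 1 quasi-likelihood model over the 16 libraries, with a mean per group, 12 residual degrees of freedom and a biological coefficient of variation of 0.205. Adjusted p-values are Benjamini-Hochberg over 14346 genes, called under 0.05, and the code was tested on simulated data. Alternatives used DESeq2 1.42.0, limma 3.58.1 voom with sample quality weights, RLE factors, no filter, only the 2 groups compared, the replicate number as a block, and each library left out.

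The members, their roles and the gene lists were chosen with earlier results of these data known. Values by library are given for the member of each role with the highest mean CPM and those with the smallest p for Tsc1 loss after ethanol and for ethanol in wild type, for Mki67 and Ccnd1, and for members called for Tsc1 loss on control diet, ethanol in the knockout or the interaction. From the lists, called genes with the smallest p were named, with Cdkn1a. Of the genes that this rule picks out, 1 is not reported here. Totals of 14.75 to 21.757 M counts, times their normalization factors, gave effective sizes of 16.013 to 19.36 M, so that 1 CPM was about 16.013 to 19.36 counts. Replicates of a group differed by more than sampling noise, with a chi-square per degree of freedom of at least 14.5.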

Additional observations from a re-analysis of the deposited data

Results flagged for a closer look

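In a group of 4 libraries, a value was listed where its gap to the nearest other, divided by the group's range, passed Dixon's 95% critical value for 4 values. Of 188 combinations of gene and group screened, 10 did, and chance gives about 1 in 20. In KO-EtOH, library 2 was highest for E2f1 at 8.28 CPM, Foxm1 at 2.67, Cdc6 at 0.624 and Prc1 at 3.29. In WT-EtOH, library 4 was highest for Cdc20 at 1.63 CPM, Hmmr at 0.732 and Top2a at 1.74, library 2 was highest for Nusap1 at 0.562, and library 3 was lowest for Kif23 at 0.0594. In KO-ctr, library 4 was highest for Prc1 at 0.902 CPM.

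By edgeR's interaction term at an adjusted p under 0.05, the ethanol response differed between the genotypes for 5 of 154 tested list genes. Over all genes this term called 0.523% higher and 1.28% lower. The log2 interaction was -3.34 for Cdkn1a, -3.60 for Btg2, -0.78 for Tipin, 1.53 for Pole and 1.75 for Smc2. Smc2 was called with any 1 library left out; the others lost the call on leaving out any 1 of 6, 3, 11 and 7 libraries in that order, and Cdkn1a, Tipin and Pole also with no filter on low counts.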

How the results depend on the processing

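Of the 87 called member values over the 6 comparisons, 52 stayed past the threshold under every alternative run, 35 were lost under at least 1, and 0 changed direction. Of 20 uncalled member values followed in the same runs, 14 passed the threshold under 1 or more. The 28 members called higher with Tsc1 loss after ethanol were 22 to 28 under the other tools and settings and 22 to 29 with any 1 library left out. The count higher with Tsc1 loss on control diet was 1 with no filter, 1 with the replicate block and 7 with voom, and 1 to 3 with a library left out; the count lower was 0 with no filter and 1 with the block, and 0 to 2. The count lower with Tsc1 loss after ethanol was 1 with no filter, with only the 2 groups compared, with the block and with voom, and 1 to 2. With ethanol in the knockout voom called 5 lower, and leaving out a library gave 3 to 12 higher and 1 to 3 lower. With ethanol in wild type the ranges were 1 to 1 higher and 9 to 17 lower, and for both factors together 15 to 20 higher and 2 to 5 lower. The interaction called 8 higher in DESeq2, and 0 to 1 higher and 0 to 0 lower with a library left out. Mki67 with ethanol in wild type changed sign to 0.036 with voom, and ran from -0.36 to 0.14 with a library left out. The shares of all genes called under these alternatives are not given here, and the cause of these changes was not tested.

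Whether replicate numbers pair the samples was not settled. Deviations of libraries with the same number correlated at -0.146 to 0.414, and 7 of 16 libraries correlated best with their own number. Same-number values were all positive between WT-ctr and KO-ctr, at 0.056 to 0.414 beside -0.313 to 0.194 for other numbers. Between WT-ctr and KO-EtOH they were 0.017 to 0.207 beside -0.236 to 0.046, and in the other pairs of groups they had both signs. With the replicate block Tsc1 loss after ethanol called 26 members higher and ethanol in the knockout 9. Low counts kept Cdc6, Ccnb1 and Bub1 out of the filtered fit. With no filter edgeR called Ccnb1 and Bub1 higher in KO-EtOH than in WT-ctr, at log2 fold changes of 2.505 (adjusted p = 0.00985) and 2.346 (adjusted p = 0.0119), and called none of the 3 in the other comparisons.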
